A study of Mus musculus with 12 samples.

Results

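Isolated editing sites were defined as listed A-to-I positions with no other listed position within 500 bp on the same chromosome. Positions were collected over the editing tables of all 12 libraries, which gave 46689 sites, and 13937 of these (29.9%) were isolated. The other 32752 sites had at least 1 neighbour within that distance and are called neighboured sites. The definition used position alone, so editing levels played no part in the choice. The study measured editing and gene expression in primary cortical neuron cultures from C57BL/6J mouse embryos at embryonic day 16.5, infected the day after seeding with lentivirus made from the pGreenPuro vector and harvested 7 days after dissection. Every group carried an shRNA: shControl1 and shControl2 carried 2 different control hairpins, shAdar1 a hairpin against Adar, shAdar2 one against Adarb1, and shZfr one against Zfr. Each group had 2 biological replicates, and each target was lowered by a single hairpin in a whole culture. The design text pairs shAdar1 and shAdar2 with shControl1, and shZfr with shControl2, to ask which sites each protein regulates. Replicate 1 of shAdar2 was sequenced as 3 technical libraries from the RNA of the same neurons, whose reads were summed, so 10 samples entered the comparisons.

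ADAR enzymes deaminate adenosine to inosine in double-stranded RNA, and sequencing reads inosine as G. Long duplexes formed by inverted repeats are usually edited at many adenosines close together, whereas short imperfect hairpins, such as those that place recoding sites in neuronal transcripts, can be edited at 1 or a few adenosines. ADAR1, the product of Adar, and ADAR2, the product of Adarb1, overlap in what they edit but prefer different sites, and Zfr encodes a zinc finger protein that binds double-stranded RNA. An editing level below is the percentage of reads with G among reads with A or G. Sites are given on mm9 and were not assigned to genes here.

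Each hairpin lowered the RNA of its target. As TMM-scaled counts relative to library size (CPM), Adar was at 53.4 ± 2.34 in shAdar1 and 172 ± 27.5 in shControl1 (SD, n = 2 in each group), Adarb1 at 50.0 ± 2.25 in shAdar2 and 121 ± 2.9 in shControl1, and Zfr at 173 ± 0.139 in shZfr and 457 ± 51.9 in shControl2. Adarb1 was also at 47.5 ± 2.63 CPM in shZfr, beside 95.3 ± 5.32 CPM in shControl2. Zfr was at 187 ± 11.5 CPM in shAdar2, beside 279 ± 16 CPM in shControl1. All 11 neuron markers were above 1 CPM in every sample, with a summed level from 4065 CPM in shAdar2 to 11330 CPM in shZfr. Of the 6 microglia markers none was above 1 CPM outside shAdar2, where up to 2 were. Markers of astrocytes summed to 249.6 to 1202 CPM, of the oligodendrocyte lineage to 76.48 to 438.3 CPM, and of proliferating progenitors to 126.5 to 1064 CPM. These lists differed between groups, and some also between replicates. Progenitor markers summed to 232.9 and 554.6 CPM in shAdar1 and to 126.5 and 446.2 CPM in shAdar2. The replicates were closer in shControl1 (223.6 and 197.3 CPM), shControl2 (488 and 518.2 CPM) and shZfr (1064 and 1005 CPM). The part of these lists in the editing results was not tested. In bulk RNA fewer cells of a type cannot be told apart from less RNA per cell.

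Isolated sites were spread over all 21 chromosomes in the tables. They made up from 24.6% of the sites on chromosome 16 to 34.6% of those on chromosomes 9 and 15, and 23 of the 52 sites on chromosome Y. The median distance to the nearest listed site was 7793 bp (quartiles 1951 and 27193 bp). For 1730 isolated sites that distance was at most 1000 bp, for 5915 it was between 1000 and 10000 bp, for 5189 between 10000 and 100000 bp, and 1103 lay more than 100000 bp from any other.

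Most isolated sites were thinly covered. The median isolated site had 31 reads summed over the 10 samples, against 65 reads for neighboured sites, and 2939 isolated sites had fewer than 10 reads in all. An edited read was seen at 8344 isolated sites, 5593 (40.1%) had none, and 80 had one in all 10 samples. Coverage of at least 10 reads in every sample was reached at 69 isolated sites, and of at least 20 at 13. Isolated sites drew 25445 reads in shAdar2 replicate 2, the fewest, and 137663 in shAdar2 replicate 1, the most. The shAdar2 replicate 2 library was the shallowest in the series (15818942 expected counts in its gene table), so comparisons with shAdar2 had the fewest sites. Of the 13937 isolated sites, 266 (1.91%) were tested in at least 1 comparison. A test required at least 20 reads in each of its 4 samples, and at least 5 edited and 5 unedited reads over them. By coverage alone, 216 isolated sites in place of 117 would have entered for shAdar1, and 432 in place of 204 for shZfr. Calls are given below for each comparison, beside the share over all sites tested.

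A few positions held a large share of the reads. The 3 deepest isolated sites, chr17:39980697, chr17:39981537 and chr17:39985500, lay within 4803 bp of each other and held 232184 of the 950228 reads (24.4%). At chr17:39981537, with 3550 to 22526 reads per sample, the level was 23.8% and 32.1% in shControl1, 26.8% and 28.5% in shControl2, 33.3% and 21.8% in shAdar1, 27.4% and 25.7% in shAdar2, and 28.1% and 27.5% in shZfr. Each of the other 4 groups overlapped the shControl1 range, the shAdar2 pair lay just below the shZfr pair, and the site was not called in any comparison. At chr17:39980697 the levels ran from 15.9% to 23.6%, again with every group overlapping the shControl1 range. At chr17:39985500 they ran from 7.49% to 11.7%, lowest in shControl2 and highest in shControl1. None of the 3 was called, with adjusted p from 0.126 to 0.977 in edgeR's quasi-likelihood test over the 5 comparisons. At the first 2 of these sites the replicates of shAdar1, and those of shControl1, lay further apart than any 2 group means. Whether the G reads at the 3 sites come from editing was not tested.

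The deepest isolated site without an edited read was chr5:93617155, with 0 edited reads of 3188, which allows a level of up to 0.0941%. At chr12:8757075, with 2025 reads, the level was at most 2.2% in all samples but those of shAdar2, where it was 5.77% of 52 reads and 6.67% of 15 reads. That site lacked the reads for a test in shAdar2. At chr11:100576778, with 1674 reads, the level ranged from 0 to 1.37%. At the other extreme 85 isolated sites had edited reads and no unedited ones, but their median coverage was 1 read and their highest 101 reads. No isolated site that was tested stood at 95% or more.

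In well covered isolated sites the mean editing level was highest in shControl1 and lowest in shAdar1. Over the 69 sites covered by 10 or more reads in each sample, the mean level was 13.0% and 12.8% in the shControl1 samples, 8.19% and 8.81% in shControl2, 4.91% and 4.79% in shAdar1, 7.86% and 7.92% in shAdar2, and 6.16% and 5.74% in shZfr. No knockdown sample overlapped the samples of its own control. The group means were 12.9 ± 0.141%, 8.5 ± 0.438%, 4.85 ± 0.0849%, 7.89 ± 0.0424% and 5.95 ± 0.297% (SD, n = 2). In the order of levels, shControl2 and shAdar2 stood next to each other, and their means differed by little more than the spread of shControl2. The 5 groups differed by the exact permutation test of the F statistic (F = 316, p = 0.00106, the smallest value that the 945 arrangements allow). The place of shControl1 as highest held under every site set tried here, but the lowest group did not. With at least 20 reads in each sample (13 sites) the means were 11.8% and 9.69% in shAdar1 and 9.75% and 8.69% in shZfr. With isolation by 1000 bp they were 4.52% and 4.94% in shAdar1 and 4.49% and 4.16% in shZfr, and by 5000 bp 4.25% and 4.96% against 4.44% and 4.23%, so shZfr had the lower mean in these 3 sets. All 3 sets hold chr17:45799898, with a mean of 43.4% in shAdar1 and 11.9% in shZfr. The sets with 20 reads and with 1000 bp also hold chr2:158210689, at 35.7% and 7.92%. Both sites are among the 69 as well, where shAdar1 had the lowest mean. The order of the groups without these sites was not computed. A single pair of groups cannot be tested this way, since 2 samples against 2 cannot give a two-sided p below 0.333.

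**Figure D1:**
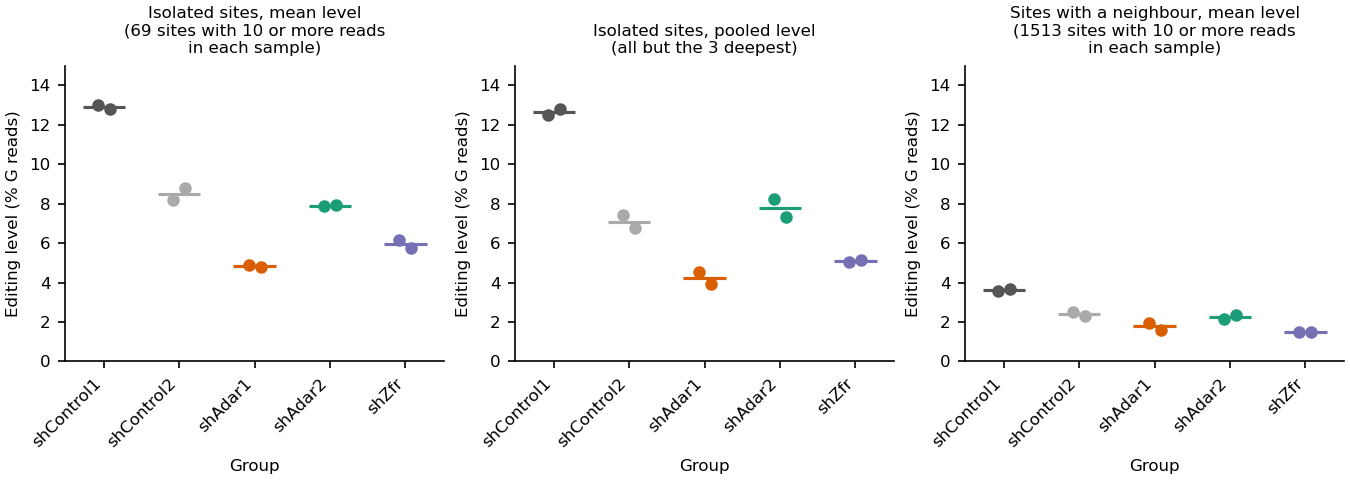
Editing level (vertical axis, percent of reads with G) in each sample of the 5 groups; points are samples and horizontal bars are group means of 2. Left and middle show isolated sites, as the mean over 69 well covered sites and as pooled reads without the 3 deepest sites, and right shows the mean over 1513 neighboured sites. In both isolated panels the shControl1 samples are highest (12.5% to 13.0%) and the shAdar1 samples lowest (3.93% to 4.91%).

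The plot of levels by group also shows the level from pooled reads, which uses every isolated site but gives deep sites more weight. Without the 3 deepest sites, which were set aside after seeing the data, it was 12.5% and 12.8% in shControl1, 7.4% and 6.77% in shControl2, 4.53% and 3.93% in shAdar1, 8.24% and 7.33% in shAdar2, and 5.05% and 5.13% in shZfr. Relative to their controls, 33.4% of the shControl1 level was left in shAdar1, 61.5% in shAdar2, and 71.8% of the shControl2 level in shZfr, while shControl2 itself was at 56% of shControl1 (exact permutation test over the 5 groups, F = 129, p = 0.00212). The 3 technical libraries of shAdar2 replicate 1 gave 8.65%, 7.68% and 8.8%. With the 3 deepest sites included, the group means were 14.6% in shControl1, 9.05% in shControl2, 8.63% in shAdar1, 13.4% in shAdar2 and 6.77% in shZfr, which was then the lowest (exact permutation test, p = 0.0127). Those 3 sites thus raised the pooled level more in shAdar1 and shAdar2 than in the other groups.

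The share of isolated sites without an edited read differed between groups. Among isolated sites with at least 20 reads in both samples of a group, 40 of 286 (14.0%) had no edited read in shControl1, 164 of 550 (29.8%) in shControl2, 169 of 352 (48.0%) in shAdar1 and 301 of 757 (39.8%) in shZfr. Levels of 20% or more were found at 44 of these sites (15.4%) in shControl1, 40 (7.27%) in shControl2, 16 (4.55%) in shAdar1 and 39 (5.15%) in shZfr. Levels from 50% to 95% were found at 10, 9, 0 and 7 sites respectively. Among neighboured sites with the same coverage, 59.9%, 59.7%, 70.1% and 61.8% had no edited read, in the same order of groups. Levels of 20% or more were found at 7.59%, 6.22%, 3.59% and 5.05% of these neighboured sites. For shAdar2 the same coverage was reached at 13 isolated sites, of which 3 had no edited read. The sites differ between groups, because each group has its own coverage.

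Whether isolated sites were edited more than neighboured ones depended on which sites were compared. With at least 10 reads required in every sample, in each of the 10 samples the mean over the 69 isolated sites exceeded that over 1513 neighboured sites, by 5.71 percentage points on average (exact two-sided sign-flip permutation test, p = 0.00195, the smallest value possible). The neighboured means were 3.62% in shControl1, 2.4% in shControl2, 1.79% in shAdar1, 2.25% in shAdar2 and 1.5% in shZfr. The gap was 2.02 points over 746 isolated and 6969 neighboured sites when shAdar2 was left out (same test, exact p = 0.00781). Both tests take samples as units and compare the same sites in every sample. Their p-values therefore do not extend to isolated sites in general. The gap differed between groups in percentage points (exact permutation test, F = 109, p = 0.00212). As a log2 ratio of the 2 means, a scale added after seeing the data, the difference between groups did not pass the threshold (exact permutation test, F = 5.71, p = 0.0519).

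Neighboured sites were not of 1 kind. Of the 19844 sites with another listed site at most 10 bp away, 50.1% had no edited read, and the 6550 with at least 10 reads in each of the 4 control samples had a mean level of 4.45% in the controls. At the same coverage, 1080 sites with the nearest site at 11 to 50 bp had 10.8%, 501 sites at 51 to 400 bp had 11.6% and 41 sites at 401 to 500 bp had 5.16%. Among isolated sites, 27 with the nearest site at 501 to 600 bp had 8.35%, 255 at 601 to 2000 bp had 10.2%, 294 at 2001 to 10000 bp had 9.22%, and 343 beyond 10000 bp had 7.91%. The mean was thus lowest at the most crowded positions, and by the mean sites at 11 to 400 bp were above every isolated class in this set. The medians did not keep that order. They were 4.99% at 11 to 50 bp and 6.2% at 51 to 400 bp. In the isolated classes they were 4.38%, 5.8%, 6.07% and 4.17%, in order of distance. The classes at 401 to 500 bp and 501 to 600 bp hold few sites. Around the 500 bp limit, pooled levels in shControl1 were 14.5% and 14.4% at the 392 sites just beyond it (501 to 600 bp) and 12.4% and 12.1% at the 441 just within it (401 to 500 bp). With neighboured sites at most 10 bp apart left out, an alternative chosen after seeing the data, the gap was 4.49 points. This gap covered sites with at least 10 reads in all 10 samples (69 isolated and 170 neighboured sites). Its direction was opposite to that of the means at 11 to 400 bp and in the isolated classes, among sites covered in the controls.

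**Figure D2:**
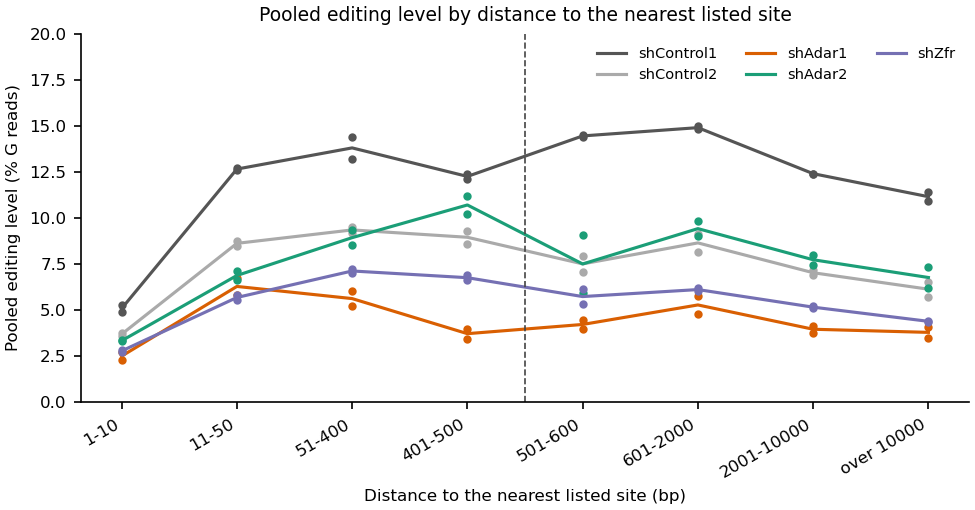
Pooled editing level (vertical axis, percent of reads with G) in classes of distance to the nearest listed site (horizontal axis, bp), by group; points are samples, lines join the means of 2, and the dashed line marks the 500 bp limit beyond which sites are isolated. The 3 deepest isolated sites are left out. In every class the shControl1 samples are above all others, from 4.89% at 1 to 10 bp to 15% at 601 to 2000 bp.

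In shAdar1 many isolated sites lost most of their editing. Of the 117 isolated sites tested against shControl1, 47 were lower (edgeR's quasi-likelihood test, adjusted p under 0.05), or 40.2%, beside 33.6% of all 890 sites tested. None was higher (beside 0.337% of all sites), either in edgeR at an unadjusted p under 0.05 or in DESeq2, which called 22 lower. Both shAdar1 samples were below both shControl1 samples at 90 of the 117 sites (76.9%), beside 66.5% of all sites. The mean over the 117 sites was 5.69% and 4.69% in shAdar1 against 17.5% and 18.4% in shControl1, so 29.0% of the control level was left. Over the 773 neighboured sites of the same test 47.0% was left, and the difference between these shares was not tested. The median change was -9.31 percentage points over all 117 and -16.6 points over the 47 called.

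Calls were found at all levels of editing. Of isolated sites under 5% in shControl1, 2 of 13 were called, of those from 5% to 20%, 22 of 73, and of those at 20% or more, 23 of 31. Among neighboured sites these counts were 16 of 148, 102 of 380 and 134 of 245. The called sites lay on 19 chromosomes. By distance to the nearest listed site, 7 of 20 were called up to 1000 bp, 25 of 55 from 1000 to 10000 bp and 15 of 42 beyond. No single stretch of distance thus held the calls.

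Some highly edited isolated sites were near 0 in shAdar1. At chr11:116442451 (nearest listed site 691 bp away) the level was 70.9% of 55 reads and 78.0% of 59 reads in shControl1, and 4.0% of 25 and 0 of 32 reads in shAdar1. In shControl2 it was 65.0% and 55.0%, in shAdar2 66.5% and 84.6%, and in shZfr 64.3% and 62.1%. Both shAdar1 samples lay far below the other 8, which overlapped in part (-72.4 points against shControl1, log2 odds ratio of an edited read -7.02 ± 0.80 SE, edgeR adjusted p = 9.3e-06).

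At chr15:98567543, 16992 bp from the next listed site, shControl1 had 71.2% and 66.7%, shControl2 41.4% and 29.4%, shAdar1 0 and 5.66%, shAdar2 52.2% and 50.0%, and shZfr 40.6% in both samples. The shAdar1 samples were again the lowest, while shControl2 was also below shControl1 (-66.1 points for shAdar1, edgeR adjusted p = 9.35e-06). At chr12:110960985 shControl1 had 61.9% and 76.3%, shControl2 53.3% and 48.8%, shAdar1 2.63% and 6.25%, shAdar2 80.4% and 50.0%, and shZfr 48.8% and 52.0%. Here too the shAdar1 pair stood apart from all others (-64.7 points, edgeR adjusted p = 2.82e-05). The shAdar2 replicate 2 values at these 2 sites rest on 6 reads each.

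At chr17:24689787 no edited read was found in 115 shAdar1 reads, which allows a level of up to 2.61%. The shControl1 samples were at 55.2% and 45.5% (edgeR adjusted p = 9.35e-06), shControl2 at 32.3% and 30.4%, and shZfr at 18.3% and 20%. The site therefore ran from high in shControl1 over shControl2 to lower in shZfr, whose difference from shControl2 did not pass the test (-12.1 points, edgeR adjusted p = 0.188). The shAdar2 samples were at 35.9% and, with 7 reads, 14.3%.

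The site chr11:98627406 had 41.7% and 62.5% in shControl1, 40.0% and 62.9% in shControl2, 2.86% and 1.49% in shAdar1, 50.8% and 57.1% in shAdar2, and 48.0% and 39.4% in shZfr. Only the shAdar1 samples left the range of the controls apart from 1 shZfr sample just under it (-49.9 points for shAdar1, log2 odds ratio -5.66 ± 0.79 SE, edgeR adjusted p = 4.73e-05). Its changes in shAdar2 (1.91 points, adjusted p = 0.978) and in shZfr (-7.73 points, adjusted p = 0.688) did not pass edgeR's test. Tested directly, the difference of shAdar1 from shAdar2 was -51.8 points (edgeR adjusted p = 1.3e-05).

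The count of 47 depended on the libraries and on the control. Leaving out 1 library gave 26 (either shControl1 replicate), 22 (shAdar1 replicate 1) or 6 (shAdar1 replicate 2). Against shControl2, the other control hairpin, 16 of 114 isolated sites were lower, beside 15.3% of all sites, and of the 70 sites tested against both controls 30 were called against shControl1, 11 against shControl2 and 11 against both.

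In shAdar2 the minimums of coverage and of edited and unedited reads left 9 isolated sites for the test against shControl1. Of these, 2 were lower (22.2%, beside 16.2% of all 105 sites tested) and none higher (beside 0.952%). At an unadjusted p under 0.05 in edgeR, and in DESeq2, 0 were higher too. Both samples were below both controls at 4 of the 9 (44.4%), beside 41.9% of all. The 2 called sites were chr2:158210689 and chr17:45799898, and both calls were made in each fit that left out 1 library.

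At chr2:158210689, with 48 to 530 reads per sample, the level was 68.5% and 66.3% in shControl1, 44.0% and 47.6% in shControl2, 40.1% and 31.4% in shAdar1, 8.68% and 2.08% in shAdar2, and 7.8% and 8.03% in shZfr. The shAdar2 and shZfr samples were all under 9% and apart from the other 6. The change was -62.0 points in shAdar2 (log2 odds ratio -4.60 ± 0.41 SE, edgeR adjusted p = 5.26e-21) and -37.8 points in shZfr (log2 odds ratio -3.27 ± 0.25 SE, edgeR adjusted p = 2.88e-35). In shAdar1 the difference was -31.7 points from shControl1 (edgeR adjusted p = 0.000657) and -10.0 points from shControl2 (edgeR adjusted p = 0.292). From shControl1 to shControl2 it was -21.6 points (edgeR adjusted p = 0.00366).

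At chr17:45799898, with 23 to 184 reads per sample, the level was 60.9% and 56.0% in shControl1, 54.3% and 50.0% in shControl2, 43.6% and 43.2% in shAdar1, 2.72% and 8.7% in shAdar2, and 16.4% and 7.32% in shZfr. Again the shAdar2 and shZfr samples were low and did not overlap the rest, while the 2 controls differed by -6.29 points (edgeR adjusted p = 0.586). The change was -52.7 points in shAdar2 (log2 odds ratio -5.24 ± 0.62 SE, edgeR adjusted p = 1.77e-13) and -40.3 points in shZfr (log2 odds ratio -3.10 ± 0.45 SE, edgeR adjusted p = 1.28e-09), and the difference in shAdar1 did not pass (-15.1 points, edgeR adjusted p = 0.105). In the direct comparison of the 2 enzyme knockdowns 7 isolated sites could be tested: both of these were higher in shAdar1 than in shAdar2 (30.3 and 37.7 points, edgeR adjusted p = 0.000332 and 2.48e-06), beside 14.6% of all sites, and chr11:98627406 was the 1 that was lower, beside 19.1%. Without shAdar2 replicate 1 none of these 3 was called, and without shAdar2 replicate 2, which limits coverage, 25 isolated sites were.

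**Figure D3:**
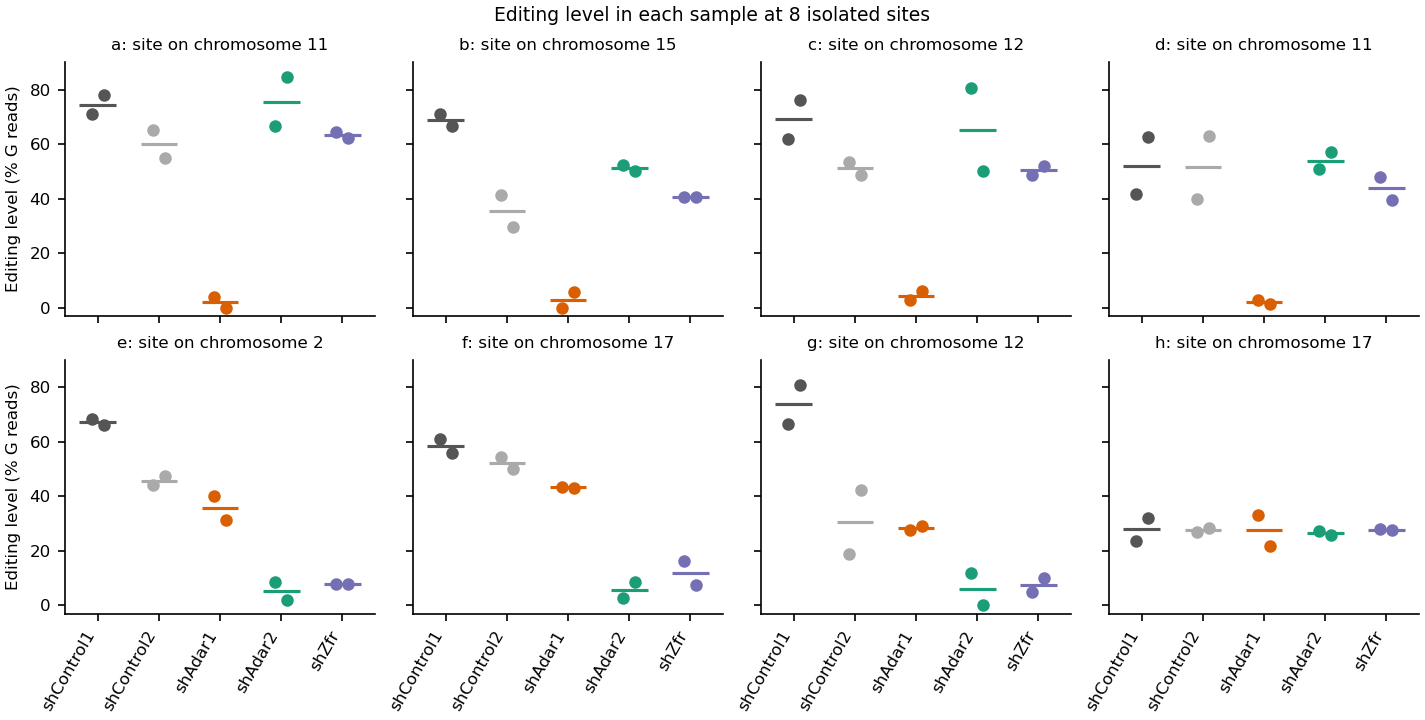
Editing level (vertical axis, percent of reads with G) in each sample at 8 isolated sites; points are samples and bars are group means of 2. Panels a to d show chr11:116442451, chr15:98567543, chr12:110960985 and chr11:98627406, where the shAdar1 samples (0 to 6.25%) are below all others; e to g show chr2:158210689, chr17:45799898 and chr12:25739515, where shAdar2 and shZfr are lowest (0 to 16.4%); h shows the deep site chr17:39981537, where the other 4 groups overlap the shControl1 range.

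In shZfr a small share of isolated sites was lower than in shControl2. Of 204 tested, 15 were lower (7.35%, beside 12.3% of all 1312 sites tested), and none was higher (beside 0.0762%), with 5 higher at an unadjusted p under 0.05 in edgeR and 0 in DESeq2, which called 2 lower. Both samples were below both shControl2 samples at 85 of the 204 sites (41.7%), beside 45.1% of all. The mean over the 204 sites was 9.24% and 8.72% in shZfr and 12.8% and 13.0% in shControl2, so 69.6% of the control level was left, with a median change of -3.39 points. Over the 1108 neighboured sites 67.0% was left. By control level, 0 of 41 sites under 5%, 7 of 130 from 5% to 20% and 8 of 33 at 20% or more were called, beside 4 of 238, 48 of 588 and 94 of 282 neighboured sites. None of the 36 tested sites within 1000 bp of another listed site was called by edgeR, against 6 of 91 from 1000 to 10000 bp and 9 of 77 beyond, and that pattern was not tested.

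The largest fall in shZfr was at chr16:75121423, which lay 40762 bp from any other listed site. Its level was 50.0% and 80.6% in shControl2 and 18.6% and 14.7% in shZfr (-48.6 points, log2 odds ratio -3.31 ± 0.54 SE, edgeR adjusted p = 7.08e-08). The other 3 groups had at most 7 reads per sample there. At chr3:25741601 shControl2 had 41.4% and 38.5% and shZfr 22.0% and 6.06% (-25.9 points, edgeR adjusted p = 0.0273), and at chr4:77513657 shControl2 had 25% and 26.9% and shZfr 7.69% and 0 of 59 reads (-22.1 points, edgeR adjusted p = 0.00309). The call at chr3:25741601 was lost in DESeq2 (adjusted p = 0.439), with a replicate block (edgeR adjusted p = 0.0624), with at least 10 reads (0.0595), with all 10 samples in the fit (0.0564), without a minimum of edited reads (0.465), and without either shControl2 replicate (0.3 and 0.101) or shZfr replicate 2 (0.284). That at chr4:77513657 was lost in DESeq2 (adjusted p = 0.226), without a minimum of edited reads (0.123), and without either shControl2 replicate (0.212 and 0.101) or shZfr replicate 2 (0.138), and that at chr16:75121423 in DESeq2 alone of the alternatives tried (adjusted p = 0.0605). At all 3 sites the shZfr samples were below both shControl2 samples, and their spread in shZfr or shControl2 was wide beside the 20 to 68 reads behind each value.

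The site chr12:25739515 was low in several groups. It had 66.7% and 80.8% in shControl1, 19.0% and 42.4% in shControl2, 27.5% and 29.3% in shAdar1, 12.0% and 0 of 14 reads in shAdar2, and 4.88% and 10.0% in shZfr. It was lower in shZfr than in shControl2 (-23.3 points, edgeR adjusted p = 0.00909), in shAdar1 than in shControl1 (-45.3 points, edgeR adjusted p = 0.00188) and in shControl2 than in shControl1 (-43.0 points, edgeR adjusted p = 0.00542). Against shControl2 the shAdar1 difference was -2.35 points (edgeR adjusted p = 0.944), so that call was made against 1 control and not the other. The shZfr call was lost without shControl2 replicate 1 (edgeR adjusted p = 0.0683), shControl2 replicate 2 (0.275) or shZfr replicate 1 (0.139), and the shAdar1 call without shAdar1 replicate 2 (0.0666).

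**Figure D4:**
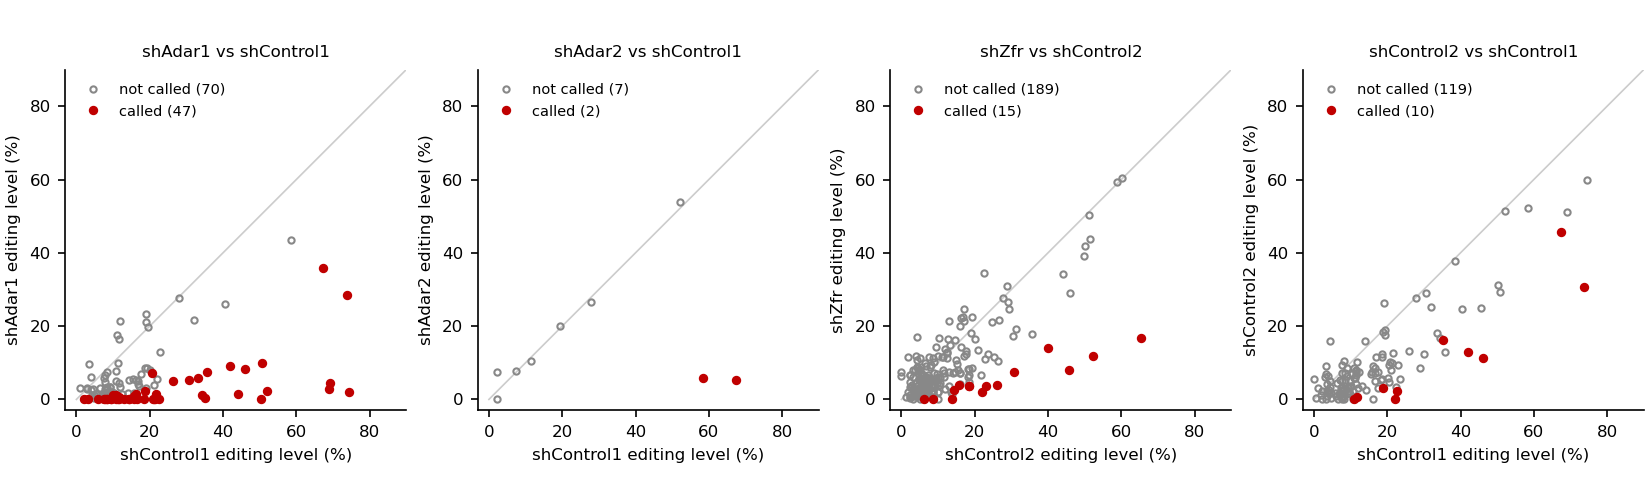
Editing level of each tested isolated site, as the mean of 2 samples in percent, in the control (horizontal axis) and in the group compared with it (vertical axis), for 4 comparisons; the grey line marks equal levels, red points were called by edgeR at an adjusted p under 0.05 and open points were not. Called points lie below the line in every panel: 47 of 117, 2 of 9, 15 of 204 and 10 of 129.

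The count for shZfr also depended on single libraries: it was 2 without shControl2 replicate 1, 6 without shZfr replicate 2, 9 without shControl2 replicate 2 and 11 without shZfr replicate 1. Against shControl1 55 of 130 isolated sites were lower, beside 45.4% of all sites. Of the 79 tested against both controls, 5 were called against shControl2 and all 5 of these also against shControl1, which called 33.

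The sites called in shZfr were low in shAdar2 as well. Neither shAdar2 nor shControl1 entered the choice of the 15 sites. From pooled reads these sites were at 6.07% and 3.94% in the shAdar2 samples and at 50.3% and 52.6% in shControl1. At the 12 with at least 10 reads in each of the 2 groups, all 12 were lower in shAdar2, with a median difference of -22.09 points. Over the 15 sites shAdar2 had 1005 reads in replicate 1 and 127 in replicate 2, so its values rest mainly on replicate 1. In shAdar1, which also had no part in the choice, the 15 sites were at 30.3% and 25.1%, and 10 of 12 were lower than in shControl1, with a median difference of -7.48 points.

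The 2 deep sites already described carry much of the pooled value, so it was also computed without them. At the remaining 13 sites shAdar2 was at 3.44% and 3.57%, shAdar1 at 19.9% and 15.3%, and shControl1 at 27.4% and 27.2%, and 10 of 10 covered sites were lower in shAdar2. The 2 deep sites held 71 of the 127 reads of shAdar2 replicate 2, so its value at the other 13 rests on few reads. Of the tested isolated sites that were not called in shZfr, the 3 deepest left aside, 112 of 159 were lower in shAdar2 than in shControl1 (median -5.26 points) and 162 of 180 were lower in shAdar1 (median -10.80 points). Called sites thus had their larger median difference in shAdar2, and sites not called had theirs in shAdar1. Called sites had higher control levels than the others, each of these 2 groups is set against shControl1, and the contrast between called and not called sites was not tested. Adarb1 RNA was low in shZfr too, as given above, and its part in these values was not tested.

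For the sites called in shAdar1, the groups shZfr, shAdar2 and shControl2 had no part in the choice. Pooled over the 47 sites, the level was 8.38% and 9.33% in shZfr, 19.1% and 16.3% in shAdar2, and 15.4% and 12.9% in shControl2. Here too chr2:158210689 carries weight. At the other 46 sites the level was 8.43% and 9.47% in shZfr, 21.7% and 18.2% in shAdar2, and 11.6% and 9.82% in shControl2. Of the 47 sites, 32 were lower and 13 higher in shZfr than in shControl2, with a median difference of -1.28 points, and at the 67 tested sites not called in shAdar1, the 3 deepest left aside, the median difference was -1.88 points. Among the 71 isolated sites tested in both comparisons, 32 were called lower in shAdar1, 6 in shZfr and 2 in both. Whether this overlap differs from that of unrelated lists was not tested.

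The 2 control hairpins differed at isolated sites. Of 129 tested, 10 were lower in shControl2 than in shControl1 (7.75%, beside 8.29% of all 989 sites tested), and none was higher (beside 0%), with 1 higher at an unadjusted p under 0.05 in edgeR. Both shControl2 samples were below both shControl1 samples at 78 sites (60.5%), beside 53% of all. The mean over the 129 sites was 9.85% and 9.04% in shControl2 and 16.6% and 17.3% in shControl1, with a median change of -6.29 points. DESeq2 called 0 of these sites in either direction, with 17 lower at an unadjusted p under 0.05. The edgeR count was 4 without shControl1 replicate 1 and 0 without any 1 of the other 3 libraries, so every call here rests on those libraries.

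Examples are chr6:48348300, with 41.0% and 42.9% in shControl1 and 15.6% and 10.4% in shControl2 (-29.0 points, edgeR adjusted p = 0.0101), and chr17:24698931, with 58.1% and 34.1% against 17.4% and 5.13% (-34.8 points, edgeR adjusted p = 0.00671). At chr15:101909118 the levels were 29.2% and 14.8% in shControl1, and no edited read was found in 50 shControl2 reads (edgeR adjusted p = 0.0236), which allows up to 6% there. The groups did not overlap at any of the 3. At chr6:48348300 the shZfr samples were lower still, at 5.0% and 2.56%, but not beyond the test's threshold against shControl2 (-9.2 points, edgeR adjusted p = 0.174).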

How the data were processed

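The authors deposited counts of unedited (A) and edited (G) reads at each site of a library, with the editing level as a fraction, per the file headers, and RSEM expected counts per gene. The submitters' processing notes name STAR 2.5.4b, Trim Galore 0.4.5, RSEM 1.2.30, SAMtools 1.4, DESeq2 1.20.0 and the mm9 build. The choice of sites and the read filters are not given in the sources used here.

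The deposited fraction equalled G/(A+G) within 0.0005. Expected counts, 15818942 to 82653835 per sample, were rounded and scaled by TMM for the targeted genes and markers. A and G counts of all sites were tested with edgeR 4.0.16 (R 4.3.3, quasi-likelihood F test, a coverage term per library) in the 4 samples of a comparison. A site entered with 20 or more reads per sample, and 5 or more reads of each base over the 4 samples. P-values were adjusted by Benjamini-Hochberg. The test was first run on simulated reads. Mean levels used sites with 10 or more reads per sample. DESeq2 1.42.0 and Fisher's exact test were alternatives. Named sites are, per comparison, up to 6 of the largest called decreases and 4 of the largest increases, and the 8 deepest sites. Of these, 2 sites are not reported here. Members and lists were chosen with earlier results of these data known. Limits on shares of 0 use 3 counts and cover counting error only, since no molecular identifiers were counted.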

Additional observations from a re-analysis of the deposited data

Results flagged for a closer look

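At 3 isolated sites the hairpins against the 2 enzymes gave different levels when shAdar1 was tested directly against shAdar2. At chr11:98627406 shAdar1 minus shAdar2 was -51.8 percentage points (edgeR adjusted p = 1.3e-05), at chr17:45799898 it was 37.7 points (edgeR adjusted p = 2.48e-06) and at chr2:158210689 it was 30.3 points (edgeR adjusted p = 0.000332). Both samples of the lower group were below both of the higher group at each of the 3 sites.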

How the results depend on the processing

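The main tests did not pair samples by replicate number. Deviations of samples with the same number correlated across sites at between -0.08 and 0.26. These values cannot show whether such samples were prepared together. With a replicate block the called isolated sites numbered 8 in place of 15 for shZfr and 3 in place of 10 for shControl2, while the counts of 47 for shAdar1, 2 for shAdar2 and 3 for shAdar1 against shAdar2 moved by less than 1.5 times.

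With at least 10 reads in each sample, 139 of 405 tested isolated sites were called in shAdar1, 7 of 43 in shAdar2 and 9 between these groups. With at least 50 reads the counts were 7 of 14, 0 of 3 and 0 in the same order, with 3 of 27 in shZfr and 5 in shControl2. The 2 sites called in shAdar2 were then not tested. Replicate 2 of shAdar2 had 48 reads at chr2:158210689 and 23 at chr17:45799898. Without a minimum of edited reads the counts were 22 of 216 in shAdar1, 4 of 432 in shZfr and 0 in shControl2, and with DESeq2 22, 2 and 0. Fisher's exact test on pooled reads called 4 in shAdar2, 21 in shControl2 and 5 between the enzyme groups. Isolation by 5000 bp left 19 of 56 in shAdar1, 1 of 4 in shAdar2 and 4 in shControl2, and by 250 bp 5 between the enzyme groups. With the other control the counts were 16 in shAdar1 and 55 in shZfr. Leaving out each replicate gave 6 to 26 in shAdar1, 2 to 3 in shAdar2, 2 to 11 in shZfr, 0 to 4 in shControl2 and 0 to 25 between the enzyme groups; the cause was not tested, though the last follows the coverage of shAdar2 replicate 2. The gap to neighboured sites as a log2 ratio gave F = 5.71 across groups. No result reversed. Among 277 alternatives for 23 results at named sites, 214 stayed on their side of the threshold and 63 fell short of it.

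Depth and the number of edited reads limit what isolated sites show: 1.91% of them met the minimums of both for a test.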
